A study of Drosophila melanogaster with 120 samples.

Results

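The 12 abdomen samples taken on day 5 from selection and control females of Drosophila melanogaster, the fruit fly, were compared, out of 120 samples in the whole series. They were chosen by their labels alone, as tissue abdomen and age 5 days, and no measured value entered the choice. Of these, 6, from selection populations 1, 2 and 3, came from flies bred for a longer reproductive lifespan by holding back mating, to day 28 of adult age at first and to day 40 in later generations. The other 6, from control populations 1, 2 and 3, came from flies mated at 14 days. Each population gave 2 biological replicates. Both regimes descended from one ancestral stock of wild-caught females, and all flies were unmated females kept at 25 °C and sampled after 35 generations. RNA from each sample was amplified, labelled with a single dye, Cy3, and hybridised to a NimbleGen array. The number of flies behind an array is not given in the sources used here.

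The female abdomen of a fly holds mainly the ovaries and the fat body, the organ that stores lipid and makes yolk proteins and many immune peptides. In the first days of adult life the ovaries mature, egg chambers enter yolk uptake, and the layers of the eggshell are then made by follicle cells in quick succession. An unmated female retains ripe eggs in the ovary. In bulk tissue, fewer cells of a type and less RNA per cell cannot be told apart.

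The arrays measured 16637 transcripts on a log2 intensity scale, where a difference of 1 is 2-fold. The median of an array lay between 10.09 and 10.36 in selection and between 10.31 and 10.39 in control. The lowest medians, 10.11 and 10.09, belonged to both arrays of selection population 1, followed by 10.21 for replicate 1 of selection population 3. The 2 replicates of a population correlated at 0.9872 to 0.994 across transcripts. No marker of fat body, ovary, eye or brain had a transcript that could be named, so the tissue was checked on whole profiles. Every array correlated at 0.9791 to 0.9917 with the mean abdomen of days 15 to 50, against 0.7441 to 0.7671 with the mean head of those days. The precision is limited by the number of arrays, which carry no depth.

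Only 16 transcripts could be tied to a single gene, and 28 more matched several genes. The other 16593 are called by their FlyBase transcript numbers, and no function is given for them. A fit of 3 selection against 3 control populations (limma, with Benjamini-Hochberg adjustment over all transcripts, at an adjusted p of 0.05) was the test of the regimes throughout.

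Day-5 abdomens of the 2 regimes differed in 1 transcript of 16637 at this threshold, 0.00601% of those tested. That transcript, FBtr0071304, was lower in selection. It read 12.89 and 13.38 in selection population 1, 13.11 and 13.34 in selection population 2, and 13.42 and 13.86 in selection population 3. It read 14.61 and 14.58 in control population 1, 14.64 and 14.67 in control population 2, and 14.79 and 14.6 in control population 3. Every selection array lay below every control array, and the control arrays lay within a narrow band. The population means were 13.33 ± 0.271 in selection and 14.65 ± 0.0505 in control (SD, n = 3 each). The difference of -1.32 (SE 0.138) is a 2.49-fold lower level in selection, with an adjusted p of 0.0313. It stayed below 0 under all 18 alternative settings and left-out populations, but the call was kept in 7 of them and lost in 11. Without the first array of selection population 3 the difference was -1.24 and the adjusted p 0.619.

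FBtr0071304 was also low in selection at other ages, but not at all of them. On day 1 its population values were 11.97, 11.71 and 12.02 in selection, against 14.55, 13.66 and 12.95 in control, with no overlap. By array, replicate 1 of control population 3 read 12.13 on that day, among the selection arrays. On day 15 the order was mixed, with 12.93, 13.77 and 14.48 in selection and 12.43, 13.79 and 14.24 in control. On day 30 the values of 10.93, 13.43 and 14.14 in selection again lay below the 14.47, 14.3 and 14.43 in control. The 10.93 was the average of 12.4 and 9.45. Replicate 1 of control population 2 read 13.69 on day 30, below both arrays of selection population 3, at 14.4 and 13.88. On day 50 the population values overlapped. The selection minus control difference was -1.82, 0.24, -1.57 and -0.63 on days 1, 15, 30 and 50. The day-5 difference did not pass the test against the mean of days 15, 30 and 50 (difference -0.67, adjusted p = 0.693) or against day 1 (0.50, adjusted p = 0.69). In day-5 heads the transcript averaged 8.23, far below its abdomen level, and the regimes differed by -0.26 there. The head minus abdomen difference of 1.06 did not pass (adjusted p = 0.193).

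**Figure D1:**
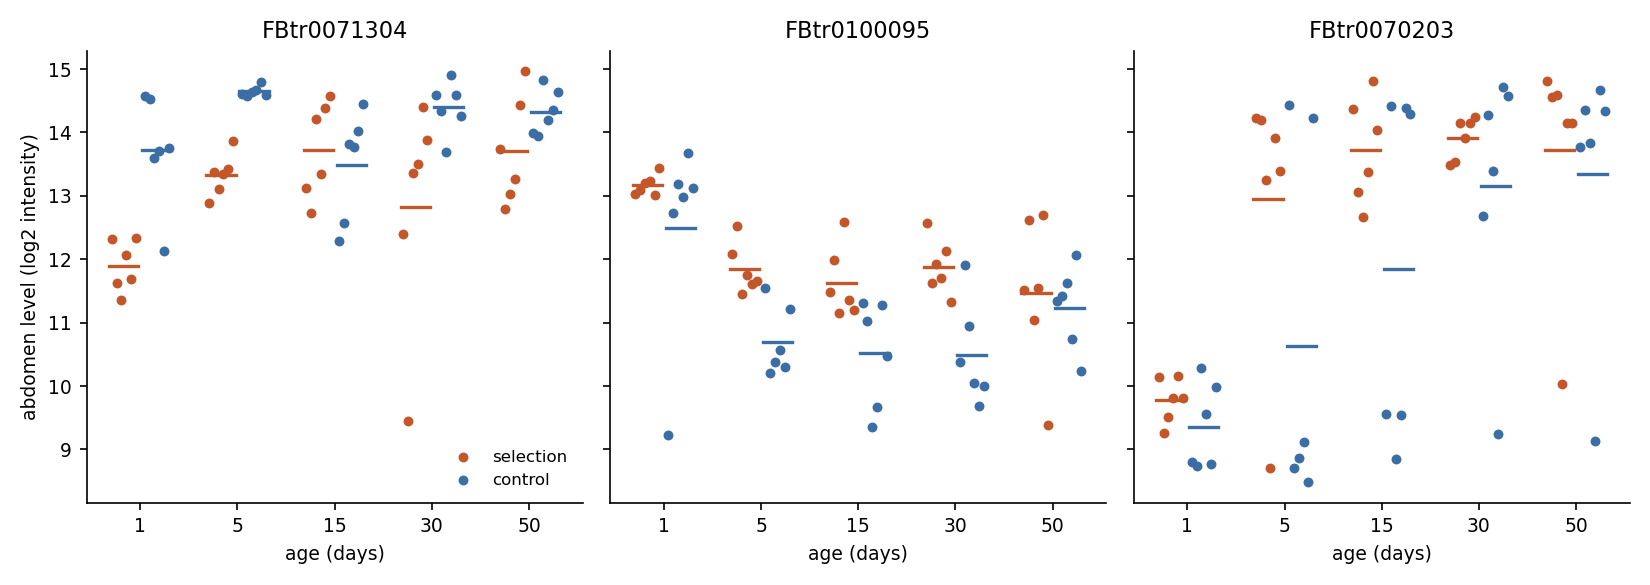
Abdomen level (log2 intensity) of FBtr0071304, FBtr0100095 and FBtr0070203 against age in days, one point per array, selection left of control at each age, with a line at the mean of the 3 populations. On day 5 the 6 selection arrays of FBtr0071304 lie between 12.89 and 13.86, below the 6 control arrays at 14.58 to 14.79, while FBtr0070203 is either near 9 or above 13 in both regimes.

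An unadjusted p under 0.05 was found for 498 transcripts (2.99%), of which 182 (1.09%) were higher in selection and 316 (1.9%) lower. That is a smaller share than the 0.05 such a threshold passes on average when no transcript differs. The count was 275 when selection population 1 was left out and 2065 when selection population 2 was left out. It was 195, 793 and 328 without control populations 1, 2 and 3. The share of higher ones was 36.5%. It was 75.8% once each array was centred on its own median, 354 higher and 113 lower, with the median difference of all transcripts at 0.12, against 0.007 as deposited. The balance of higher and lower transcripts therefore depends on the scaling, and directions of small differences are relative to it. The 3 selection values lay beyond the 3 control values in 1359 transcripts (8.17%), 675 (4.06%) above and 684 (4.11%) below. Without any regime effect, 3 against 3 values separate in this way with a probability of 0.1, which is above that share. All 6 arrays lay beyond the other 6 in 73 transcripts (0.439%), 19 (0.114%) above and 54 (0.325%) below.

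**Figure D2:**
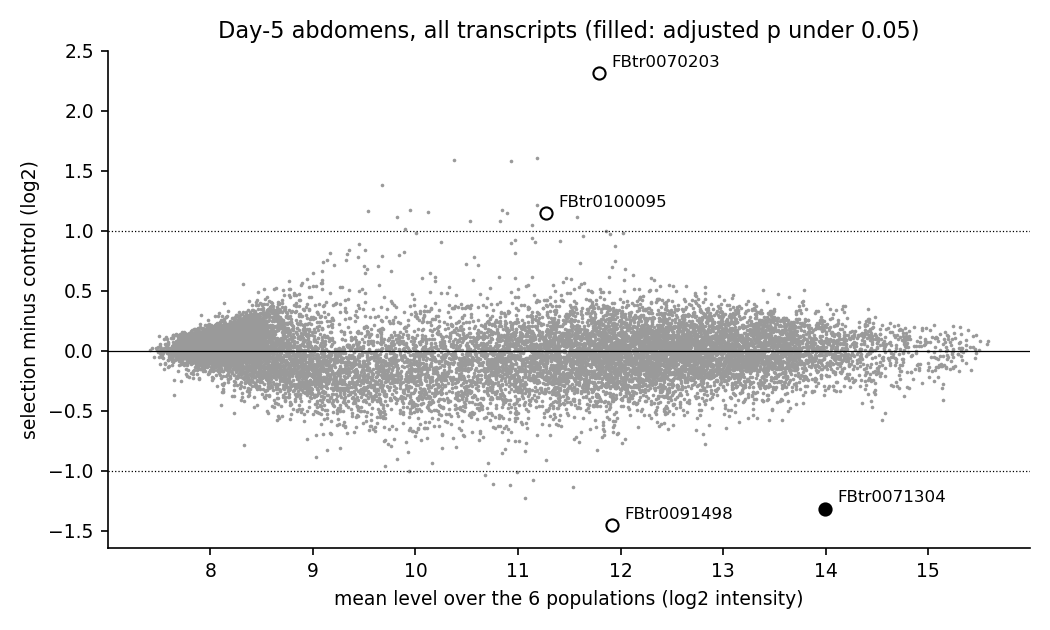
Selection minus control difference (log2) against the mean level over the 6 populations (log2 intensity) for all 16637 transcripts of day-5 abdomens, with dotted lines at a difference of 1 either way. FBtr0071304, filled, is the transcript with an adjusted p under 0.05. FBtr0070203 has the largest difference, 2.31, but is open because it did not pass.

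Among transcripts higher in selection, none passed. FBtr0100095 had the smallest p. It read 12.08, 12.53, 11.46, 11.75, 11.61 and 11.66 in the 6 selection arrays, in the order of populations 1 to 3, and 11.55, 10.21, 10.38, 10.57, 10.31 and 11.21 in the 6 control arrays. The population values did not overlap, but replicate 1 of control population 1 lay among the selection arrays. The difference was 1.14 (SE 0.232, adjusted p = 0.815 in limma). The selection populations also lay above the control populations on days 15 and 30, by 1.11 and 1.38, but not on day 50, when the difference was 0.23. In day-5 heads the transcript averaged 7.81, near the low end of the scale, which begins at 7.009.

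FBtr0273217 and FBtr0289975 were higher in every selection array than in any control array. FBtr0273217 read 11.29, 12.31, 11.22, 11.13, 11.31 and 11.02 in selection and 10.54, 10.78, 10.52, 10.49, 9.92 and 10.63 in control, a difference of 0.90 (SE 0.231, adjusted p = 0.815). On day 1 its difference was -0.28, with the regimes overlapping. FBtr0289975 read 9.02, 9.08, 9.29, 9, 9.88 and 9.19 in selection, against 8.61, 8.62, 8.69, 8.63, 8.65 and 8.65 in control, a difference of 0.60 (SE 0.165, adjusted p = 0.815). Its day-1 order was the opposite, at -0.24 with no overlap of populations, but the change between days 1 and 5 did not pass the test either (difference 0.84, adjusted p = 0.647). The remaining transcripts that the naming rule gave in this direction were FBtr0077326 at 1.16, FBtr0083237 at 1.05, FBtr0074868 at 1.38 and FBtr0071201 at 1.15, all with an adjusted p of 0.815. In FBtr0077326, FBtr0071201 and FBtr0074868 the 2 replicates of a population differed widely. Control population 1 read 10.21 and 8.1 for FBtr0077326, and selection population 2 read 12.24 and 8.6 for FBtr0071201. For FBtr0074868 selection population 3 read 10.97 and 8.22, and the population values of the regimes overlapped.

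Among transcripts lower in selection, FBtr0091498 had the largest difference. It read 11.67, 11.72, 11.16, 11.72, 10.54 and 10.33 in selection, against 12.9, 10.92, 12.9, 12.68, 12.78 and 13.67 in control, a difference of -1.45 (SE 0.369, adjusted p = 0.815). One control array, replicate 2 of population 1, lay within the selection arrays. FBtr0086811 read 11.63, 11.4, 11.72, 11.7, 11.28 and 11.39 in selection and 12.33, 11.78, 12.31, 12.01, 11.9 and 12.52 in control. All its selection arrays lay below the control arrays, at a difference of -0.62 (SE 0.166, adjusted p = 0.815), while on day 15 its difference was 0.45. FBtr0087452 had a difference of -0.66 on day 5 and -0.61 on day 30, with no overlap of populations on either day, and 0.04 on day 15. The others given by the rule were FBtr0073060 at -0.78, FBtr0080280 at -0.23, FBtr0081871 at -1.08 and FBtr0073702 at -1.01. For FBtr0073060 the replicates of control populations 2 and 3 were split, at 9.92 and 8.18 and at 9.75 and 8.06. FBtr0080280 lay near the low end of the scale, with means of 7.71 in selection and 7.94 in control. For FBtr0081871 the low values were those of selection population 1, 9.84 and 8.85, while selection populations 2 and 3 read 11.38, 11, 11.55 and 10.99, and the control arrays 11.28 to 12.18.

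A difference of at least 1 was found in 27 transcripts (0.162%), 18 (0.108%) higher in selection and 9 (0.0541%) lower. The population values of the regimes did not overlap in 8 of the 27, where 8.17% of all transcripts did not overlap. The 27 were picked for a large difference in the same values, which favours such separation. A difference of at least 1 was kept by 6 without selection population 1. None of the 27 turned round without that population, and it was furthest from the other 5 in 13 of them. Over all 16637 transcripts it was the highest or lowest of the 6 populations in 10228, so no excess is shown. Among the 18 higher ones, selection population 2 lay below both other selection populations in 13.

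Several of the largest differences came from transcripts that were high in some arrays and low in others. FBtr0070203 had little in between, while FBtr0071203 and FBtr0083430 also had arrays in between. These transcripts were singled out after their values were seen, so the values below are descriptions without a test of the pattern. FBtr0070203, with the largest difference of all at 2.31 (SE 0.819, adjusted p = 0.815), read 14.23 and 14.19 in selection population 1, 13.25 and 8.7 in selection population 2, and 13.91 and 13.39 in selection population 3. In control it read 14.43 and 8.7 in population 1, 8.86 and 9.11 in population 2, and 8.48 and 14.23 in population 3. The level was above 12 in 5 of 6 selection arrays and in 2 of 6 control arrays, and 3 of the 6 populations had 1 replicate at each level. On day 1 no array of either regime reached 12. The arrays above 12 numbered 6 of 6 in selection and 3 of 6 in control on day 15, 6 and 5 on day 30, and 5 and 5 on day 50.

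FBtr0071202, FBtr0071203 and FBtr0083430 ran closest to FBtr0070203 over the 12 arrays, each with a correlation of at least 0.95, given here as a description. The same 5 arrays were lowest in all of them: replicate 2 of selection population 2, replicate 2 of control population 1, both replicates of control population 2 and replicate 1 of control population 3. FBtr0071202 was less split, from 10.51 in replicate 2 of control population 1 to 13 in replicate 1 of selection population 1. FBtr0071203 read 13.6, 13.5, 11.39, 9.11, 12.9 and 11.45 in selection, against 13.85, 8.56, 8.67, 8.73, 9.01 and 13.49 in control. FBtr0083430 read 12.65, 12.38, 10.24, 8.01, 12.6 and 11.14 in selection, against 13.04, 8.25, 8.21, 7.99, 7.89 and 12.07 in control. Their differences of 1.61 and 1.59 both had an adjusted p of 0.815, and for both transcripts the selection arrays lay within the range of the control arrays.

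A second set of such transcripts followed other arrays. FBtr0081241 read 13.86, 13.56, 8.85, 8.94, 14.15 and 13.45 in selection, against 13.22, 8.5, 8.65, 13.01, 8.76 and 13.96 in control. Both replicates of selection population 2 were low here, the other 4 selection arrays were high, and each control population had 1 high and 1 low replicate. FBtr0081242 and FBtr0070663 had the same arrays high and low. With all populations the differences were 1.12 for FBtr0081241, 0.98 for FBtr0081242 and 1.21 for FBtr0070663, with adjusted p-values of 0.817, 0.829 and 0.815. Without selection population 2 they were 2.74, 2.64 and 2.76, with adjusted p-values of 0.00181, 0.00181 and 0.0129, and these 3 were then the only transcripts called. In that setting FBtr0071304 had an adjusted p of 0.0561. For FBtr0081241 the control population values, each the average of 1 high and 1 low replicate, were 10.86, 10.83 and 11.36.

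**Figure D3:**
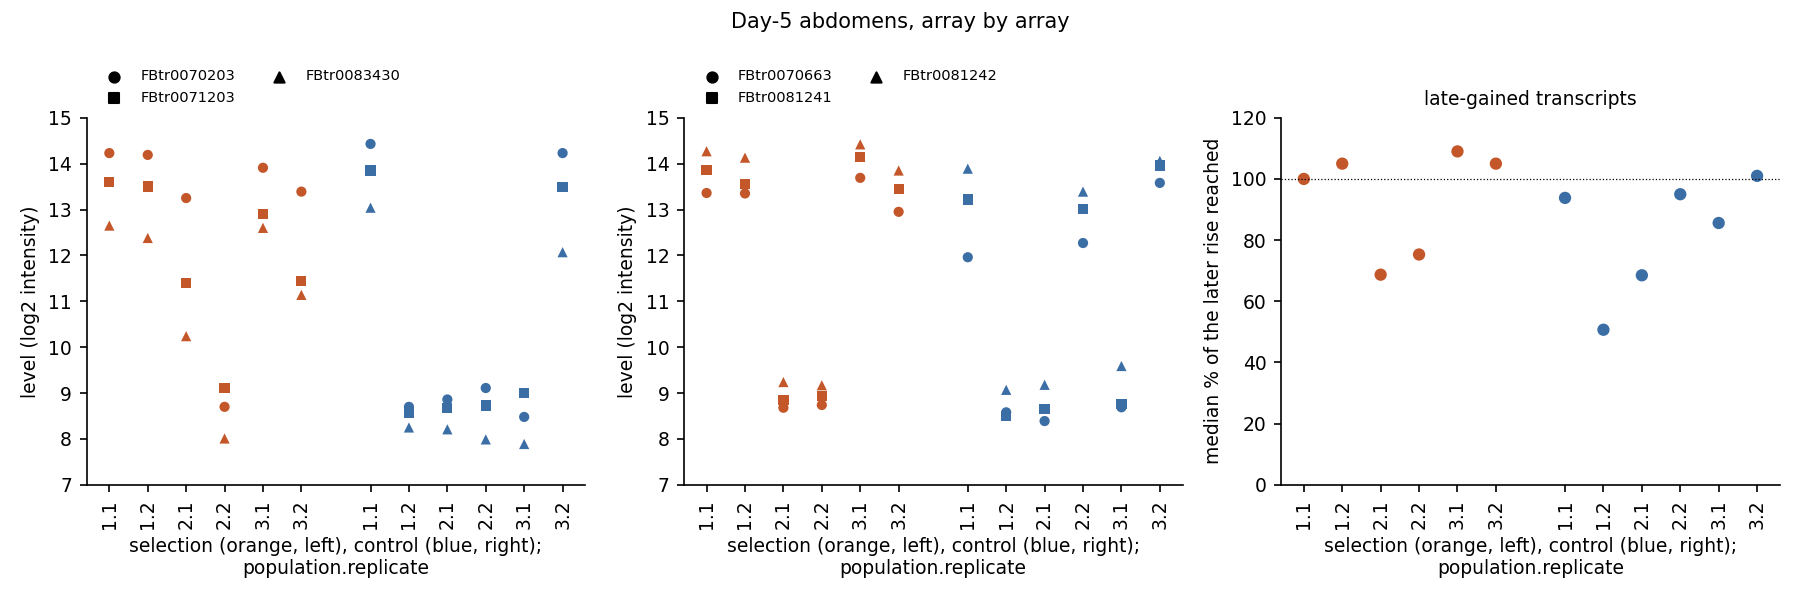
Day-5 abdomens array by array, labelled population.replicate, with selection left and control right. The left and middle panels give the log2 intensity of 6 transcripts, each below 10 in some arrays and above 10 in the others, and the right panel the median share (%) of the later rise reached by 24 late-gained transcripts, from 50.7% in replicate 2 of control population 1 to 109% in replicate 1 of selection population 3.

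A group of late-gained transcripts was also described, by a rule that used no day-5 abdomen but was chosen after values had been seen. Its 24 members, 4 of which are FBtr0071203, FBtr0083430, FBtr0070663 and FBtr0081241 described above, had a head mean over all ages under 8.5, a day-1 abdomen mean under 9 and a rise of at least 3 on the log2 scale by days 15 to 50. On day 5 they had reached a median of 102%, 69.6% and 102% of that rise in selection populations 1, 2 and 3, against 76%, 80% and 84.7% in control populations 1, 2 and 3. Selection populations 1 and 3 stood above all control populations and selection population 2 below them. Under other minimum rises, also chosen after values had been seen, this order did not hold. With a minimum rise of 2 in place of 3 (50 transcripts) selection population 2 stood among the controls, at 83.7% against 83.1%, 82.4% and 88.2%, and with a minimum rise of 4 (8 transcripts) it did so at 70.4% against 66.9%, 80.9% and 75.1%. By array the share ran from 68.7% to 109% in selection and from 50.7% to 101% in control, so the arrays overlapped. Of the 24, 18 were higher in selection and 6 lower, where 8612 of all 16637 transcripts were higher, with a median difference of 0.428 beside 0.007 over all transcripts. At the adjusted p 0 passed, and at an unadjusted p of 0.05 1 did, near the 2.99% of all transcripts. Without the 4 described above, 14 of 20 were higher, the median difference was 0.249, and the share of the later rise was 96.9%, 80% and 101% in selection populations 1, 2 and 3, against 81.7%, 81.1% and 88.3% in control populations 1, 2 and 3. Some of the 20 were still low in selection population 2. FBtr0076573 read 13.25, 9.07 and 12.83 in selection populations 1, 2 and 3, and FBtr0071204 12.7, 9.22 and 11.31. Others were not, as FBtr0083580 at 12.02, 12.02 and 10.81. Members that follow the same arrays are not independent, so these counts are descriptions.

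A maturation position, set to 0 at the day-1 profile and to 1 at the day-15 profile of the abdomen, was computed for each population. It used 200 transcripts each way, chosen in the populations of the other numbers without the day-5 arrays. The positions were 0.989, 0.869 and 0.969 in selection populations 1, 2 and 3, and 0.919, 0.861 and 0.913 in control populations 1, 2 and 3. Positions of different population numbers rest on different choices of transcripts, so they are not strictly comparable. By value, selection population 2 lay among the controls. Within each number the selection position was above the control position, by least in population 2. The means were 0.942 ± 0.0647 in selection and 0.898 ± 0.0321 in control (SD, n = 3 each). The difference of 0.0448 gave a two-sided exact permutation p of 0.3, where the smallest p that 3 against 3 allows is 0.1. That test takes the populations as exchangeable. A permutation test paired by population number gave a p of 0.25, the smallest that 3 pairs allow. The labels do not say that the number marks pairs.

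Differences among populations of the same regime made up most of the variation among the day-5 abdomens. Regime took 15.1% of the sum of squares among the 12 arrays with 1 degree of freedom, populations within regimes 54.2% with 4, and biological replicates 30.7% with 6, which is 15.1%, 13.6% and 5.11% per degree of freedom. An F test of populations within regimes, with the biological replicates as error, called 2624 transcripts (15.8%) at an adjusted p of 0.05, and 5998 (36.1%) had an unadjusted p under 0.05. That test describes these 6 populations and says nothing on the regimes. Its error, the spread between replicates, is smaller than the spread between populations that the regime test uses.

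Selection population 1 stood apart from the other 5 populations. Its median absolute deviation from them was 0.222 on the log2 scale, against 0.104 in selection population 2 and 0.111 in selection population 3, and 0.164, 0.0879 and 0.105 in control populations 1, 2 and 3. It was at least 1 higher than the others' mean in 130 transcripts and at least 1 lower in 290. Of the 2624 called transcripts, 1700 (64.8%) had their largest deviation there and 573 (21.8%) in control population 1. Over all 16637 transcripts, selection population 1 was the highest or lowest population in 10228. The share of largest deviations was not counted over all transcripts, so no excess among the called ones is shown. Deviations were taken from the other 5 populations regardless of regime, while the F test compares populations within regimes. Without selection population 1 the F test called 138, and without selection population 2 it called 897. At other ages this population stood out less, with deviations of 0.107, 0.166, 0.167 and 0.143 on days 1, 15, 30 and 50. Other populations deviated most at those ages. Control population 1 did so on day 1 (0.188) and control population 2 on day 15 (0.47). Selection population 2 did so on day 30 (0.188) and control population 3 on day 50 (0.191). A population standing apart at 1 age was therefore not particular to selection population 1. The 2 day-5 arrays of selection population 1 also had the lowest medians, 10.11 and 10.09. Control population 1, second in deviation, had medians of 10.37 and 10.39. The part of the medians in the deviation was not tested.

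**Figure D4:**
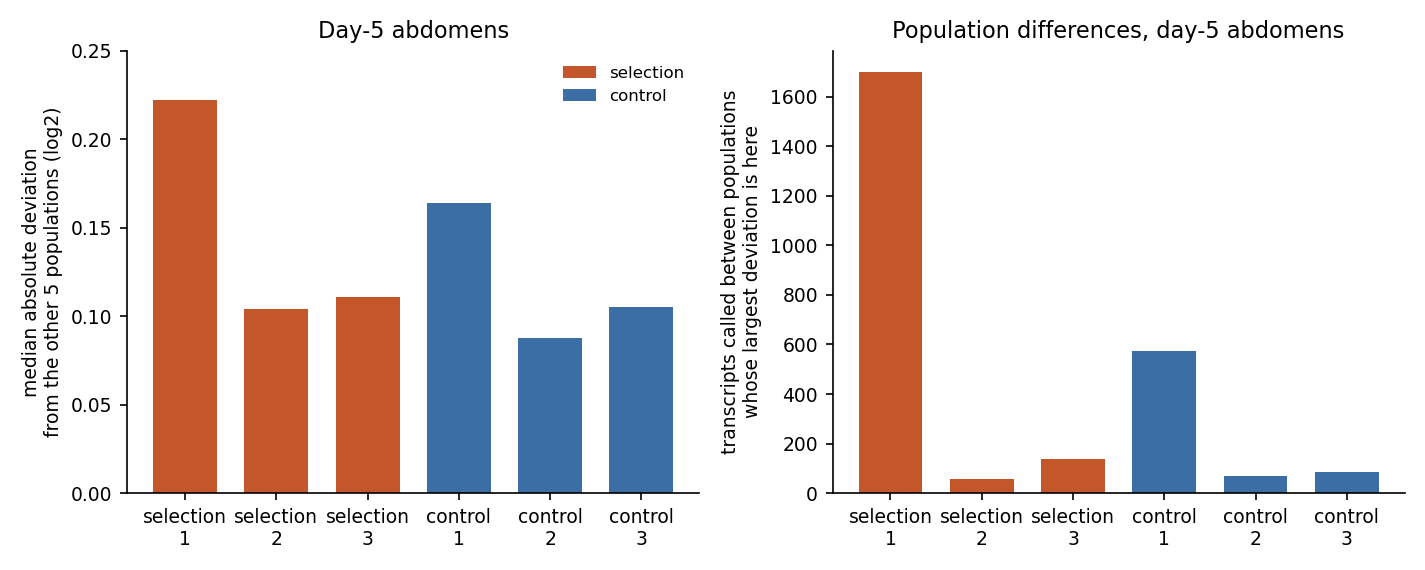
Left, median absolute deviation (log2) of each population's day-5 abdomen from the mean of the other 5 populations; right, the number of transcripts called between populations within regimes whose largest deviation lies in that population. Selection population 1 is highest in both, at 0.222 and 1700 transcripts, followed by control population 1 at 0.164 and 573.

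The transcripts with the strongest population differences show these profiles. FBtr0087117 read 10.23 and 10.14 in selection population 1, 8.52 to 8.77 in selection populations 2 and 3, and 8.5 to 8.82 in control (adjusted p of the F test 0.00126). FBtr0083757 read 11.1 and 11.15 in selection population 1, with 12.57 to 13.23 in the other selection populations and 12.36 to 13.08 in control (adjusted p 0.00163). FBtr0070880 followed another order (adjusted p 0.00126). It read 9.33 and 9.47, 10.46 and 9.57, and 11.07 and 11.12 in selection populations 1, 2 and 3, against 10.48 and 10.4, 8.88 and 9, and 11.58 and 11.5 in control populations 1, 2 and 3. It was high in population 3 of both regimes, and its regime difference was -0.13.

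Of the 16 transcripts tied to a single gene, 0 passed the regime test and 0 had an unadjusted p under 0.05, where 2.99% of all transcripts did. In all, 6 were higher in selection and 10 lower, with differences from -0.32 to 0.12 and a median of -0.106, and after median centring 8 were higher and 8 lower. Selection population 1 was the lowest of the 6 populations in 9 of the 16, and in 4833 of all 16637. The F test of populations within regimes passed for 4 of the 16, where 15.8% of all transcripts did.

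Among 17 genes of chromatin, 4 were tied and none passed the regime test. kis, which encodes the chromodomain protein Kismet of the Trithorax group, read 11.81 and 11.46, 12.58 and 12.85, and 11.73 and 12.68 in selection populations 1, 2 and 3. In control it read 11.83 and 12.73, 12.71 and 12.33, and 12.5 and 12.57. Selection population 1 was low, as were replicate 1 of selection population 3 and replicate 1 of control population 1, and the other arrays lay between 12.33 and 12.85. The difference was -0.26, with a 95% interval from -0.80 to 0.27, and 0.01 without selection population 1. SuUR, which keeps heterochromatin underreplicated in polyploid cells, read 12.26, 11.92, 13.09, 13.07, 12.37 and 12.92 in selection and 12.64 to 12.96 in control. It passed the F test (adjusted p 0.0236), with selection population 1 minus the mean of the other 5 at -0.75, and the regime difference was -0.22 with all populations and 0.04 without that one. HDAC3, a histone deacetylase, differed by 0.03 (95% interval -0.24 to 0.31). His4r, a histone H4 gene outside the histone cluster, differed by 0.09 (-0.11 to 0.30). Whether its probes also read the clustered H4 copies was not tested.

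Among 15 genes of extracellular matrix and cytoskeleton, LanA and alpha-Spec were tied. LanA, the laminin alpha chain of basement membranes such as that around egg chambers, read 12.37 and 12.25 in selection population 1, 13.08 and 13.04 in population 2 and 12.23 and 12.69 in population 3, against 12.65 to 12.92 in control. The selection arrays lay on both sides of the control arrays, the difference was -0.18 (95% interval -0.61 to 0.25), and the F test passed (adjusted p 0.0317). alpha-Spec, a subunit of the spectrin skeleton under the cell membrane, read 9.95, 9.97, 10.62, 10.76, 9.97 and 10.55 in selection and 10.26 to 10.64 in control. Its difference was -0.18, with the same 3 selection arrays low as for LanA. These 3 were also the low selection arrays for kis and SuUR, and they have the lowest medians of all the day-5 arrays. The part of the array medians in this was not tested.

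Among 24 genes of insulin and TOR signalling, mio and Wdr24 were tied, both subunits of the GATOR2 complex that relieves inhibition of TORC1. mio, whose loss in flies disturbs oocyte fate, read 9.71 and 9.61, 10.36 and 10.29, and 10.18 and 10.47 in selection populations 1, 2 and 3, against 10.84 and 10.73, 9.93 and 9.99, and 10.26 and 10.28 in control. Selection population 1 was lowest and control population 1 highest, and the F test passed (adjusted p 0.0185). The regime difference was -0.23 (95% interval -0.85 to 0.38). Wdr24 differed by 0.12 (-0.29 to 0.53), so the 2 subunits had differences of opposite sign, neither of which passed.

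**Figure D5:**
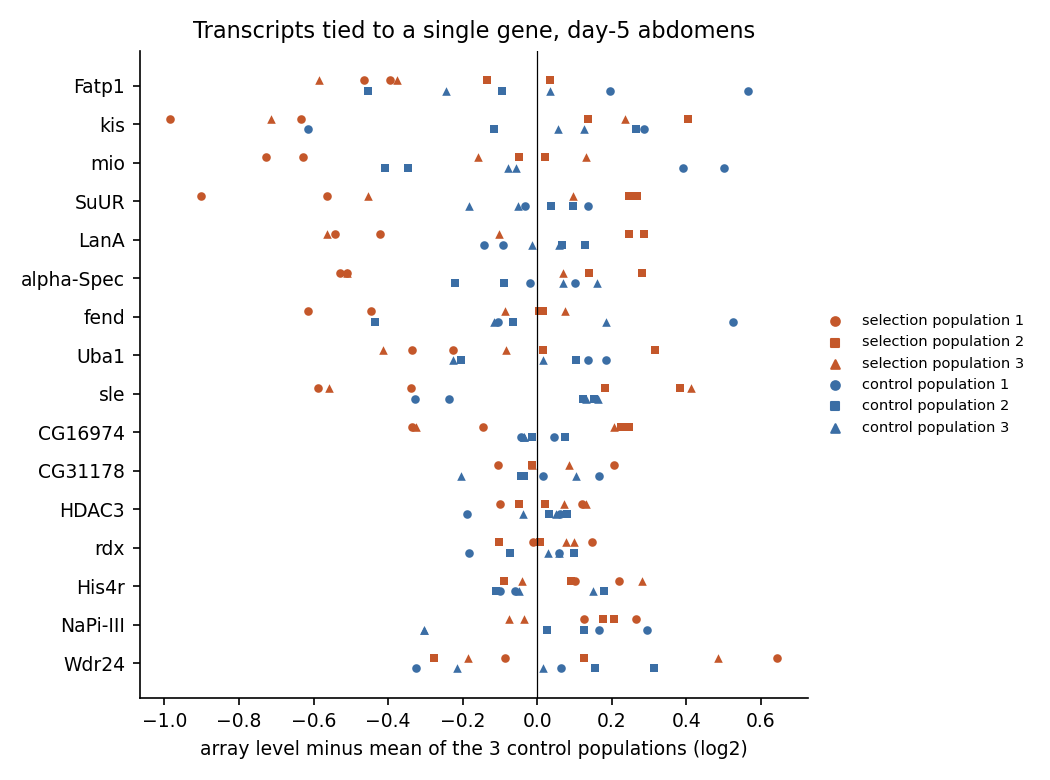
Level of each array minus the mean of the 3 control populations (log2) for the 16 transcripts tied to a single gene, selection above control in each row and one symbol per population. Differences run from -0.32 for Fatp1 to 0.12 for Wdr24, and selection population 1, the orange circles, is lowest in 9 of the 16.

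The other lists had few tied members. Fatp1, a fatty acid transport protein and the tied member of 14 genes of lipid uptake and storage, had the largest difference of the 16. It read 11.74, 11.81, 12.24, 12.07, 11.83 and 11.62 in selection, against 12.4, 12.77, 12.11, 11.75, 11.96 and 12.24 in control. The arrays overlapped, and the difference of -0.32 had a 95% interval from -0.78 to 0.14. NaPi-III, a phosphate transporter and the tied member of 9 genes of transport, differed by 0.11 (-0.24 to 0.46) and passed the F test (adjusted p 0.0403). Its 2 arrays of control population 3 were low, both at 12.81.

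Among 14 genes of ubiquitin and the proteasome, Uba1, the ubiquitin-activating enzyme, differed by -0.12 (95% interval -0.44 to 0.19) and rdx, a substrate adaptor of Cullin-3 ligases, by 0.04 (-0.16 to 0.23). A further 4 tied genes lay in no list. fend differed by -0.17, sle by -0.09, CG16974 by -0.02 and CG31178 by 0.02, and sle and CG16974 turned to 0.02 and 0.09 under median centring. No gene of yolk and eggshell, of antimicrobial peptides or of heat shock and oxidative stress had a tied transcript, so these groups could not be described.

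Of the 28 transcripts that matched several genes, 26 carry 1 main reading frame and at least 1 further frame upstream. None passed the regime test, and the differences ran from -0.43 to 0.30, with 13 higher in selection and 15 lower, or 20 and 8 after median centring. The population values of the regimes did not overlap in 3 of the 28, where 8.17% of all transcripts did not overlap. For the transcript of Ppcdc, which encodes an enzyme of coenzyme A synthesis, and CG42496, FBtr0071672, the arrays read 13.34, 13.15, 13.82, 14.12, 13.93 and 13.86 in selection and 14.16, 13.86, 13.88, 14.16, 14.1 and 14.07 in control. Selection population 1 was lowest, the difference was -0.34 (SE 0.175, adjusted p = 0.815), and the F test passed (adjusted p 0.0248). The transcript of CG6191 and CG45088, FBtr0087678, also passed the F test (adjusted p 0.0126). It read 12.38 and 12.47, 12.61 and 12.75, and 11.86 and 11.59 in selection populations 1, 2 and 3, and 12.28 and 11.88, 12.48 and 12.35, and 11.93 and 11.76 in control. Population 3 was lowest in selection and in control.

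The day-5 difference between regimes was also set against that of other ages and of heads of the same populations. Against the mean of days 15, 30 and 50, 0 transcripts passed and 1006 (6.05%) had an unadjusted p under 0.05, and the smallest adjusted p was 0.6934. Against day 1, 0 passed and 1082 (6.5%) had such a p, with a smallest adjusted p of 0.647. Between heads and abdomens, 0 passed and 3561 (21.4%) had such a p, with a smallest adjusted p of 0.1931. Without selection population 2, FBtr0081241 and FBtr0081242 passed, with head minus abdomen differences of -2.73 and -2.80 (adjusted p 0.0467 and 0.0251 in limma). The population left out is the selection population in which both were low, at 8.85 and 8.94 for FBtr0081241. Each control population averages 1 high and 1 low replicate, which makes the control values alike. In day-5 heads FBtr0081241 averaged 8.28, so these passes restate the abdomen values given above. The comparisons with other ages and with heads share the day-5 abdomen arrays, so their values are not independent of those above.

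The transcripts with the smallest p in these comparisons are given as values. For FBtr0086955, day 5 minus the later days was -0.20 ± 0.112 in selection and 0.63 ± 0.0607 in control (SD, n = 3 each), a difference of -0.83 (SE 0.121). For FBtr0113899, day 5 minus day 1 was 0.61 ± 0.157 in selection and -0.19 ± 0.124 in control, a difference of 0.80 (SE 0.133). For FBtr0113000, head minus abdomen was 1.72 ± 0.231 in selection and 0.56 ± 0.234 in control, a difference of 1.16 (SE 0.182). In each of these 3 the spread among populations was well below the difference, which a choice by the smallest p favours. None passed, with adjusted p-values of 0.693, 0.647 and 0.193 in limma.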

How the data were processed

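Values were the deposited log2 intensities, which the authors made with RMA, per the submitters' processing notes. RMA subtracts background, gives the arrays a common distribution and sums up the probes of a transcript, which can shrink differences shared by many transcripts. The sources used here do not say which arrays were normalized together, or name the annotation release or genome build.

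The 2 biological replicates of each population were averaged, since selection acted on whole populations. The labels mention pairs of selection and control populations but do not say that the population number marks them. Nothing says whether the replicates came from separate cultures. limma 3.58.1 (R 4.3.3, intensity trend, two-sided, Benjamini-Hochberg over 16637 transcripts, no filter) tested the regimes. The day and tissue contrasts used the differences within populations, and the F test used the 12 arrays. The fits were tested on simulated data.

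Names came from a RefSeq gene table (Release 6 plus ISO1 MT). Named transcripts were all those tied to 1 gene and, as fewer than 5 passed in each direction, the 6 with the smallest p and the 4 with the largest non-overlapping difference each way, plus the 3 with the smallest p in each further comparison, of which some are printed. The 28 tied to several genes, the transcripts high in some arrays and low in others, those called without selection population 2 and the late-gained group were added after values were seen. The members and gene lists were chosen with earlier results of these data known. No sequence table was used here, and none is printed.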

Additional observations from a re-analysis of the deposited data

Results flagged for a closer look

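In 124 groups of 6 arrays (the named transcripts, each regime by itself), 10 held an array whose gap to its neighbour was large beside the range of the group. Chance flags about 1 in 20 groups, and the 2 arrays of a population are not independent. FBtr0273217 had replicate 2 of selection population 1 at 12.31, with the next at 11.31, and replicate 1 of control population 3 at 9.92, with the next at 10.49. FBtr0289975 had replicate 1 of selection population 3 at 9.88, with the next at 9.29.

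FBtr0070203, the transcript with 2 levels, had replicate 2 of selection population 2 at 8.7, with the next at 13.25. FBtr0084211, which matches CG7071 and Muted, had replicate 1 of selection population 1 at 13.27, with the next at 13.65.

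The remaining 5 lay in control. Replicate 2 of population 1 stood apart in FBtr0091498 at 10.92, with the next at 12.68, in FBtr0073702 at 13.16, with the next at 11.65, and in FBtr0079695, which matches lmgB and lmgA, at 10.32, with the next at 9.92. FBtr0087452 had replicate 1 of control population 1 at 12.62, with the next at 13.07. FBtr0088611, which matches CG8026 and CG45085, had replicate 2 of control population 2 at 13.44, with the next at 13.59.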

How the results depend on the processing

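The count of 1 regime call was 0 under quantile normalization, median centring, no intensity trend, the population number as a block, biological replicate 2 alone, pooling over days and leaving out the first array of selection population 3, an alternative chosen after seeing the data. It ran from 0 to 3 when 1 population was left out. In 11 of 18 settings FBtr0071304 lost its call. Its adjusted p was 0.0576 with quantile normalization, 0.0596 with median centring, 0.759 with no trend, 0.131 with the population block, 0.656 with replicate 2 alone, 0.619 without that array and 0.999 pooled over days. It was 0.0561 without selection population 2 and 0.214, 0.215 and 0.281 without control populations 1, 2 and 3. The cause was not tested. The call was kept among bright transcripts (0.0179), with replicate 1 alone (0.00457), robust variance (0.0349), a random population block (0.00228), that block with the replicate number as a block (0.00191), and without selection populations 1 (0.0499) and 3 (0.00854).

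The 498 transcripts at an unadjusted p of 0.05 were 851 with replicate 1 alone, 276 with replicate 2 alone, 831 with the random block and 322 pooled over days, and 195 to 2065 when 1 population was left out. Among bright transcripts they were 252, but only the transcripts above the median level were tested there, so that count is not comparable with 498. The head minus abdomen count of 0 was 0 to 2 when 1 population was left out, 2 without selection population 2. The F test's 2624 were 5355 with median centring and 138 to 3713 when 1 population was left out. Its count was 1442 among bright transcripts, again out of only those above the median level. The maturation difference ran from 0.022 to 0.0732 when 1 population was left out, and was 0.0411 with days 15, 30 and 50 as the later profile, chosen after seeing the data. The population number was not taken as pairing, since the labels do not say that it marks pairs. Same-numbered populations correlated at -0.096, -0.161 and 0.333 in their deviations, and differently numbered ones at -0.19 to 0.259. With so few populations, such values cannot show whether the design was paired. With the population number as a block 0 transcripts passed and 370 had an unadjusted p of 0.05. With the replicate number as a block in the random-block fit, 1 passed, and in the F test 2192. Of 1350 named values under alternatives, 18 belonged to FBtr0071304, the only called transcript. Of these 18, 0 turned round, but 11 lost the call. Among uncalled values 54 moved by over 1 SD, and some changed sign, as for sle and CG16974 under median centring. Newly called were 0, a count that does not cover FBtr0081241, FBtr0081242 and FBtr0070663, called without selection population 2. With 3 populations a regime, only differences large beside the population spread could pass.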
